A study of Mus musculus with 9 samples.

Results

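The genes described here are 10 genes of fatty acid uptake and beta-oxidation, chosen by name: Cd36, Fabp3, Cpt1b, Cpt2, Acadvl, Acadl, Acadm, Hadha, Hadhb and Hadh. All 10 were among the 13179 genes of the deposited table, and all 10 passed the filter on low values. They were measured in polyadenylated RNA of the gastrocnemius, a largely fast-twitch muscle of the calf, in 9 libraries from mice fed high-fat food during 6 weeks. Each of 3 groups had 3 libraries. The p38α KO is labelled p38alphaMCK-KO and lacks p38α, a stress-activated kinase encoded by Mapk14. The p38α/γ KO is labelled p38alpha/gammaMCK-KO and lacks p38α together with p38γ, a related kinase encoded by Mapk12. The third group is labelled control, and it received the same diet. MCK is the usual short name of muscle creatine kinase, whose promoter is active in striated muscle, but the labels do not spell out the deletion strategy. Strain, sex, age and the alleles that the controls carry are not given in the sources used here. Whether each library is a different animal is not stated in the labels, and p-values reflect only how much these libraries vary. All groups were on the high-fat diet, so no value describes muscle on ordinary chow.

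Long-chain fatty acids enter muscle fibres with the help of membrane proteins such as CD36 and are carried in the cytosol by fatty acid binding proteins. Once activated to acyl-CoA, they cross into mitochondria as carnitine esters, and the beta-oxidation spiral then shortens them by repeated rounds of dehydrogenation, hydration, a further dehydrogenation and thiolysis. In muscle this pathway supplies fuel at rest, during endurance exercise and in fasting, and many of its genes are known targets of the nuclear receptors PPARα and PPARδ, the oestrogen-related receptors and the coactivator PGC-1α.

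The deposited values are normalised values per gene and library, and the depth inferred from them was 23.8 to 27.9 M reads per library. Each of the 10 genes held at least 2266 inferred reads in every library. Mapk14 had 43.8, 45.5 and 40.3 in p38α KO muscle, 54.7, 37.0 and 42.7 in p38α/γ KO muscle, and 143, 149 and 157 in control. Mapk12 had 96.5, 103 and 105 in p38α KO muscle, 31.2, 35.5 and 32.8 in p38α/γ KO muscle, and 139.9, 138 and 152 in control. Both targeted genes were thus lowest where the labels name them, and Mapk12 was also lower in p38α KO muscle than in control (limma adjusted p = 0.00601). All 6 defining skeletal muscle genes were abundant in every library, and none of the fibre type, endothelial, adipocyte or macrophage markers was at 0 in any library. Within p38α KO muscle, library 1 was unlike its fellows, with a correlation of 0.96 to library 3 across genes on the log2 scale, against 0.976 to 0.993 for the other pairs within groups. The values in each library summed to 896829, 980047 and 992509 in p38α KO muscle, 944203, 933251 and 975973 in p38α/γ KO muscle, and 1132170, 1057630 and 1115710 in control, so scaling all libraries to the same sum would raise the knockouts against the controls.

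Hadh, which encodes the mitochondrial 3-hydroxyacyl-CoA dehydrogenase for short and medium chains, was higher in both knockouts than in control. It was 1.6-fold higher in p38α KO muscle and 1.76-fold higher in p38α/γ KO muscle. The other 9 genes did not pass the test in either knockout, and their log2 changes lay between -0.33 and 0.27. The lowest of these were Acadm, the medium-chain acyl-CoA dehydrogenase, in p38α KO muscle and Cd36, at the entry of the pathway, in p38α/γ KO muscle. Genes were tested as log2(value + 1) with limma on 13137 genes and called at a Benjamini-Hochberg adjusted p below 0.05. By that rule 1 of the 10 was called in p38α KO muscle, where 17.8% of all tested genes were called, and 1 of the 10 in p38α/γ KO muscle, where 25.6% were. In the direct comparison of the p38α KO with the p38α/γ KO, 0 of the 10 were called, against 0.442% of all tested genes, and at an unadjusted p below 0.05 the count was also 0. The median log2 change of the 10 genes was 0.03 in p38α KO muscle and 0.11 in p38α/γ KO muscle, beside medians of 0.01 and 0.02 over all tested genes. The 2 comparisons with control share the same 3 control libraries. As this is whole muscle, fewer cells of a type and less RNA per cell cannot be told apart.

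**Figure D1:**
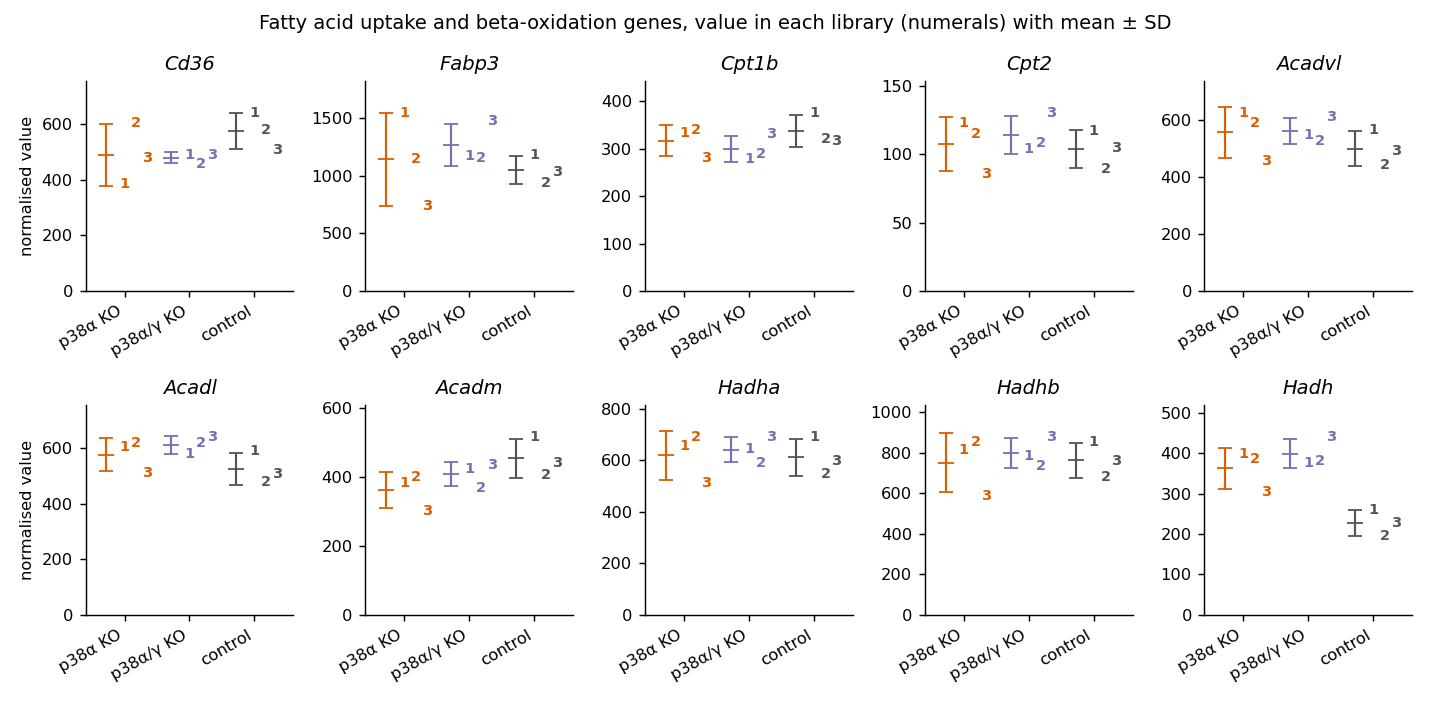
Normalised value (linear axis from 0) of each of the 10 genes in the 3 libraries of each group, drawn as the library's number, with the group mean and SD (n = 3) as a bar at its left. For Hadh the 6 knockout libraries lie between 304 and 441 and the 3 control libraries between 195 and 259; for Hadha, Hadhb, Cpt2, Acadvl, Acadl, Fabp3 and Cpt1b the groups overlap.

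Fatty acid uptake was represented by Cd36 and Fabp3. Cd36, the fatty acid translocase of the plasma membrane (chromosome 5, 17781690 to 17888801, minus strand, GRCm38), had values of 383, 604 and 477 in p38α KO muscle, 490.0, 456 and 491 in p38α/γ KO muscle, and 639.8, 579 and 508 in control. Every p38α/γ KO library was below every control library, while in p38α KO muscle library 2 lay among the controls and library 1 was the lowest of all 9. The log2 change was -0.26 in each knockout (SE 0.15; limma adjusted p = 0.270 in p38α KO muscle and 0.229 in p38α/γ KO muscle). Neither change passed the test. Without library 1 of the p38α KO the change in that group was -0.09, and with only the 6 libraries of the p38α/γ KO and control in the fit Cd36 was called in that comparison (limma adjusted p = 0.0466). CD36 is also made by endothelial cells and adipocytes. The summed level of 11 endothelial markers was 529, 498 and 479 in p38α KO muscle, 490.4, 455 and 501 in p38α/γ KO muscle, and 518, 505 and 499 in control. The summed level of 10 adipocyte markers was 575, 489 and 687 in p38α KO muscle, 612, 1038 and 881 in p38α/γ KO muscle, and 459, 763 and 670.3 in control. The endothelial sums of both knockouts overlapped those of the controls, as did the adipocyte sums. Fabp4 made up the largest part of each adipocyte sum. It had 319, 302 and 410 in p38α KO muscle, 379, 572 and 503 in p38α/γ KO muscle, and 298, 432 and 379 in control. Single markers were called in limma all the same. In p38α/γ KO muscle, where 25.6% of all tested genes were called, 3 of the 11 endothelial markers were, with log2 changes of -0.46 for Cdh5, -0.50 for Vwf and 0.49 for Egfl7. Of the 10 adipocyte markers 1 was called in p38α KO muscle, Lep, at -2.70. Lep had low values of 1.08, 0.95 and 3.01 in p38α KO muscle, and 3.34, 33.0 and 29.2 in control, where library 1 was also low. The part of these cells in the Cd36 values was not tested.

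Fabp3, the cytosolic fatty acid binding protein of heart and muscle (chromosome 4, 130308595 to 130315463, plus strand), spread more than any other of the 10 genes within p38α KO muscle. Its values were 1540.3, 1144 and 736 in p38α KO muscle, 1167, 1148 and 1473 in p38α/γ KO muscle, and 1178, 936 and 1030.2 in control. The groups overlapped in both comparisons, and the lowest and the highest library of all 9 were both from the p38α KO. The log2 change was 0.06 in p38α KO muscle (SE 0.23, limma adjusted p = 0.873), which became -0.19 without library 1 of that group and 0.35 without its library 3. In p38α/γ KO muscle it was 0.27 (adjusted p = 0.410). The 95% interval of the change ran from -0.46 to 0.58 in p38α KO muscle, the widest of the 10 genes.

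The carnitine shuttle was represented by both carnitine palmitoyltransferases. Cpt1b, the muscle form of the malonyl-CoA-sensitive enzyme of the outer mitochondrial membrane (chromosome 15, 89416405 to 89425863, minus strand), had values of 332, 339 and 280.1 in p38α KO muscle, 277, 289 and 330.2 in p38α/γ KO muscle, and 375, 319 and 315 in control. Cpt2, which regenerates acyl-CoA on the matrix side of the inner membrane (chromosome 4, 107903981 to 107923610, minus strand), had 123, 115 and 85.3 in p38α KO muscle, 104, 109 and 130.15 in p38α/γ KO muscle, and 117, 89.5 and 104 in control. Both genes overlapped with control in each knockout. The log2 change of Cpt1b was -0.09 in p38α KO muscle (limma adjusted p = 0.619) and -0.17 in p38α/γ KO muscle (adjusted p = 0.278), and both signs turned when libraries were scaled to equal totals (0.12 and 0.04). That of Cpt2 was 0.04 in p38α KO muscle (adjusted p = 0.864) and 0.14 in p38α/γ KO muscle (adjusted p = 0.526). Cpt1b lies on the same chromosome as the targeted gene Mapk12, at a distance of 275.7 kb. In the annotation it lies wholly within Gm44502, a longer gene of the same strand, so its counts depend on how shared reads were assigned, which is not given in the sources used here.

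The first dehydrogenation is carried out by acyl-CoA dehydrogenases of different chain length preference. Acadvl, for very long chains (chromosome 11, 70010183 to 70015411, minus strand), had values of 625, 589.9 and 456 in p38α KO muscle, 548, 525 and 612 in p38α/γ KO muscle, and 567, 443 and 491 in control. Acadl, for long chains (chromosome 1, 66830839 to 66863277, minus strand), had 605, 618 and 510.4 in p38α KO muscle, 579, 619 and 642 in p38α/γ KO muscle, and 589.8, 478 and 508 in control. The groups of these genes overlapped, with most knockout libraries above the control median. The log2 change of Acadvl was 0.15 in p38α KO muscle (limma adjusted p = 0.475) and 0.17 in p38α/γ KO muscle (adjusted p = 0.369). That of Acadl was 0.14 (adjusted p = 0.407) in p38α KO muscle and 0.23 (adjusted p = 0.149) in p38α/γ KO muscle. Acadl passed the test in p38α/γ KO muscle under quantile normalisation (0.34, adjusted p = 0.0440) and under scaling to equal totals (0.44, adjusted p = 0.0190). Acadvl shares 2119 bases with Dvl2 on the opposite strand. The library kit keeps strand, but whether counting used it is not given in the sources used here.

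Acadm, for medium chains (chromosome 3, 153922357 to 153944632, minus strand), had values of 382, 402 and 302 in p38α KO muscle, 425, 369 and 436 in p38α/γ KO muscle, and 518, 406 and 441 in control. All 3 p38α KO libraries lay below all 3 control libraries, by a narrow margin between library 2 of each group, and the p38α/γ KO overlapped with control. The log2 change in p38α KO muscle was -0.33 (SE 0.13, 95% interval -0.63 to -0.03 without adjustment), with a limma adjusted p of 0.112. In p38α/γ KO muscle it was -0.15 (adjusted p = 0.426), and 0.06 with libraries scaled to equal totals. Neither change passed the test. Its promoter is shown because Acadm is a textbook target of PPARα through a nuclear receptor element. Capitals mark the half-site AGGTCA or its complement TGACCT, of which this window of 250 bases before and 50 bases after the RefSeq start (GRCm38.p6) held a single match, at its far end.
Acadm promoter, chr3:153944594-153944893, minus strand: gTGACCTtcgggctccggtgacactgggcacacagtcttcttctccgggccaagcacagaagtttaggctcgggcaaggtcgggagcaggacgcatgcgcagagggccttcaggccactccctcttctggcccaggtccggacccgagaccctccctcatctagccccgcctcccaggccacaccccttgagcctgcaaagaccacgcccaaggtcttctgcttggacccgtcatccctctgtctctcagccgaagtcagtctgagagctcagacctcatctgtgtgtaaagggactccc

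The trifunctional protein carries out the remaining steps for long chains at the inner mitochondrial membrane. Hadha encodes its alpha subunit with the hydratase and long-chain 3-hydroxyacyl-CoA dehydrogenase activities (chromosome 5, 30118304 to 30155162, minus strand). Hadhb encodes the beta subunit with the thiolase (chromosome 5, 30155248 to 30184593, plus strand). Hadha had values of 655, 691 and 512 in p38α KO muscle, 643, 592 and 692 in p38α/γ KO muscle, and 690.1, 549 and 598 in control. Hadhb had values of 814, 855 and 586 in p38α KO muscle, 784, 736 and 879 in p38α/γ KO muscle, and 852, 679.5 and 758 in control. Both genes overlapped with control in each knockout. The log2 change of Hadha was 0.01 in p38α KO muscle (limma adjusted p = 0.963) and 0.07 in p38α/γ KO muscle (adjusted p = 0.707). That of Hadhb was -0.04 (adjusted p = 0.893) in p38α KO muscle, turning to 0.17 with libraries scaled to equal totals, and 0.07 (adjusted p = 0.753) in p38α/γ KO muscle.

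The genes of the trifunctional protein lie head to head, with starts 86 bases apart in GENCODE M21 and 273 bases apart in RefSeq. The ratio of Hadha to Hadhb was 0.805, 0.809 and 0.873 in p38α KO muscle, 0.819, 0.804 and 0.787 in p38α/γ KO muscle, and 0.8097, 0.807 and 0.789 in control. Its coefficient of variation over the 9 libraries was 3.09%, the lowest among the 45 pairs that the 10 genes form. The promoter of Hadhb is shown because its window, built on the RefSeq start, covers most of the region between the divergent RefSeq starts, though not the start of Hadha itself, and shares 228 bases with that of Hadha. Capitals mark the GC box GGGCGG or its complement CCGCCC, of which it held 4.
Hadhb promoter, chr5:30155003-30155302, plus strand: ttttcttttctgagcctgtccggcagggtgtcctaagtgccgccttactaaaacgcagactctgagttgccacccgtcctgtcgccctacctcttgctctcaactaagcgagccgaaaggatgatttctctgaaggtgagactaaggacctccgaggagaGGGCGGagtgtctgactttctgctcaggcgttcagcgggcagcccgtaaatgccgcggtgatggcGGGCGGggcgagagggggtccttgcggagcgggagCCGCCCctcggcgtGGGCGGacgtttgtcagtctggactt

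Hadh acts in the third step of the spiral, the oxidation of 3-hydroxyacyl-CoA, after the trifunctional protein has shortened long chains. The gene lies on chromosome 3 from 131233419 to 131272101 on the minus strand. It had values of 399, 385 and 304 in p38α KO muscle, 375, 382 and 441 in p38α/γ KO muscle, and 259, 195 and 227 in control. Every knockout library was above every control library. The means were 363 ± 51.2 in p38α KO muscle, 399 ± 36.2 in p38α/γ KO muscle and 227 ± 32.2 in control (SD, n = 3 each). The log2 change was 0.67 in p38α KO muscle (SE 0.14, 95% interval 0.37 to 0.98, limma adjusted p = 0.0120) and 0.82 in p38α/γ KO muscle (SE 0.14, 95% interval 0.51 to 1.12, adjusted p = 0.00597). The p38α KO differed from the p38α/γ KO by -0.14 (95% interval -0.45 to 0.16, adjusted p = 0.704), which did not pass the test. The call held under each of 20 alternative settings in both comparisons, with adjusted p from 0.00469 to 0.0479 in p38α KO muscle and from 0.00083 to 0.0304 in p38α/γ KO muscle. Without library 1 of the p38α KO, which stood apart, the change in that group was 0.60 (adjusted p = 0.0169). An exact two-sided permutation test of 3 against 3 libraries gave p = 0.1 for Hadh in each knockout, the smallest value that its 20 splits allow.

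The Hadh promoter is shown as that of the gene that was called in both knockouts. Capitals mark the CCAAT box and the GC box GGGCGG or its complement CCGCCC.
Hadh promoter, chr3:131272052-131272351, minus strand: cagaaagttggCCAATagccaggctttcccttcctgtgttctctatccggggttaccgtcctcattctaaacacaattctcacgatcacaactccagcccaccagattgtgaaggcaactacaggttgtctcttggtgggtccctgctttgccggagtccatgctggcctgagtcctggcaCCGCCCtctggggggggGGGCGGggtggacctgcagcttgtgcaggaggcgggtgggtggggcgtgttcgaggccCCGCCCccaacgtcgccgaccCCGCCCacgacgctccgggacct
It held 1 CCAAT box, 4 GC boxes and no half-site AGGTCA. In it 63.0% of bases were G or C, against a median of 52.7% over all RefSeq promoters. That median was not taken for genes in the expression table alone. Promoters of 9 of the 10 genes were in the RefSeq table (GRCm38.p6), Cpt1b not being matched. On either strand, AGGTCA was found in 3 of the 9, Acadm, Cd36 and Acadvl. It was in 16.3% of all 32851 promoters, or 12.8% of those of genes in the expression table. GGGCGG was found in 6 of the 9, including Hadh, Hadha and Hadhb, and in 35.7% of all promoters, or 61.2% of those of genes in the expression table. CCAAT was found in 2 of the 9, Hadh and Cd36, and in 37.4% of all promoters, or 37.3% of those in the expression table. None of the 9 held the direct repeat DR1, which is AGGTCA repeated after 1 base of any kind (0.0396% of all promoters). Nor did any hold the oestrogen-related receptor element TCAAGGTCA (0.423%), which contains the half-site, or the MEF2-type element of CTA and TAG with any 4 bases between them (3.69%). These are matches of letters in 300 bases and describe no binding.

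**Figure D2:**
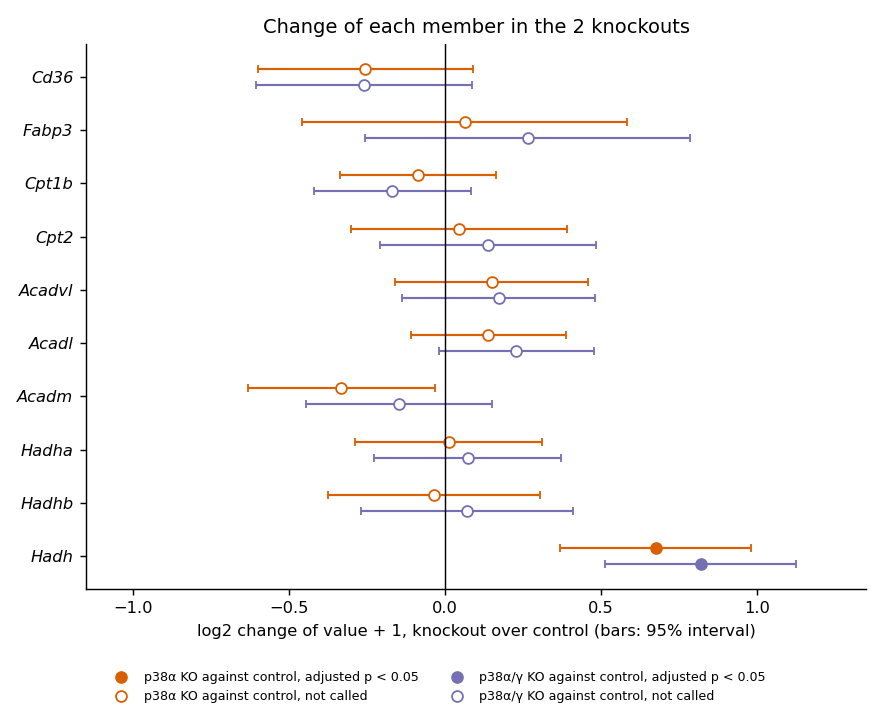
Fitted log2 change of value + 1 (horizontal axis, knockout over control) of each of the 10 genes with its unadjusted 95% interval, the p38α KO above the p38α/γ KO in each row. Filled points passed an adjusted p below 0.05; only Hadh did, at 0.67 and 0.82, and the intervals of 8 genes cross 0 in both knockouts while that of Acadm in p38α KO muscle ends at -0.03.

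The 3 tested genes that lie nearest to Hadh, within 500 kb, were looked at after the values were seen. Cyp2u1, a cytochrome P450, had log2 changes of 0.14 in p38α KO muscle and 0.12 in p38α/γ KO muscle, Sgms2, a sphingomyelin synthase, -0.01 and 0.13, and Papss1, which makes the sulfate donor PAPS, -0.24 and 0.05. None passed the test (limma adjusted p from 0.202 to 0.958 for the p38α KO, 0.488 to 0.799 for the p38α/γ KO).

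To compare levels between genes, values were taken per kilobase of the longest annotated messenger RNA. The order in control was Fabp3, Hadhb, Acadl, Acadvl, Acadm, Cd36, Hadha, Hadh, Cpt1b and Cpt2. Which form was expressed was not tested, so the order depends on these lengths, such as 4017 bases for Hadha and 2048 for Hadhb. Fabp3 was highest at 1385 ± 489 per kilobase in p38α KO muscle, 1534 ± 221 in p38α/γ KO muscle and 1273 ± 148 in control. Cpt2 was lowest at 45.4 ± 8.34 in p38α KO muscle, 48.1 ± 5.97 in p38α/γ KO muscle and 43.7 ± 5.88 in control (SD, n = 3). Between these, neighbours such as Acadl and Acadvl, Cd36 and Hadha, or Hadh and Cpt1b differed by less than the sum of their SDs in control. Hadh stood at 203 ± 28.6 per kilobase in p38α KO muscle and 223 ± 20.3 in p38α/γ KO muscle, between Acadvl and Acadm, and at 127 ± 18 in control, between Hadha and Cpt1b. Acadm stood at 177 ± 25.8 in p38α KO muscle, 200.2 ± 17.5 in p38α/γ KO muscle and 222 ± 27.8 in control.

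Within a library the 10 genes tended to be high or low together. Library 3 of the p38α KO was the lowest of its group for 9 of the 10 genes, all but Cd36. Library 3 of the p38α/γ KO was the highest of its group for all 10, and library 1 of the controls was the highest of its group for all 10. The sum of the 9 genes other than Hadh was 5459, 5358 and 3945 in p38α KO muscle, 5017, 4844 and 5685 in p38α/γ KO muscle, and 5526, 4479 and 4753 in control. These sums overlapped between groups. Markers of slow and oxidative fibres, 11 in all, summed to 11388, 6955 and 3215 in p38α KO muscle, 8838, 8560.2 and 10295 in p38α/γ KO muscle, and 7312, 6102 and 5677 in control. Library 3 of the p38α KO was the lowest of its group for all 11 of these markers, and library 3 of the p38α/γ KO the highest of its group for 10 of the 11. In control the order was different, since 8 of the 11 markers were highest in library 2, where 8 of the 10 genes described here were the lowest of the group. The sum of the controls followed Myh2 and Mb, the most abundant markers, and without them it was 1705, 2065 and 1014. The part of fibre type in the values was not tested. Of the 11 slow and oxidative markers 1 was called higher in each knockout and none lower, and of 11 fast fibre markers 2 were called lower in each and none higher, beside 7.32% of all tested genes called higher and 10.4% lower in p38α KO muscle and 11.2% and 14.4% in p38α/γ KO muscle. The slow count in p38α KO muscle was 0 without any 1 control, without replicate 2 of that group or without replicate 3 of the p38α/γ KO, and 2 without replicate 3 of the p38α KO. The fast count there was 1 in 7 of the 9 fits that left out a library and 4 without replicate 3 of that group. The fast count in p38α/γ KO muscle was 1 in 7 of the 9 such fits and 4 without replicate 1 of the p38α KO, and the slow count was 2 without replicate 3 of the p38α KO. The fast markers summed to 87023, 124306 and 142057 in p38α KO muscle, 111605, 116707 and 116450.0 in p38α/γ KO muscle, and 164823, 151423 and 163145 in control, so both knockouts lay below control.

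**Figure D3:**
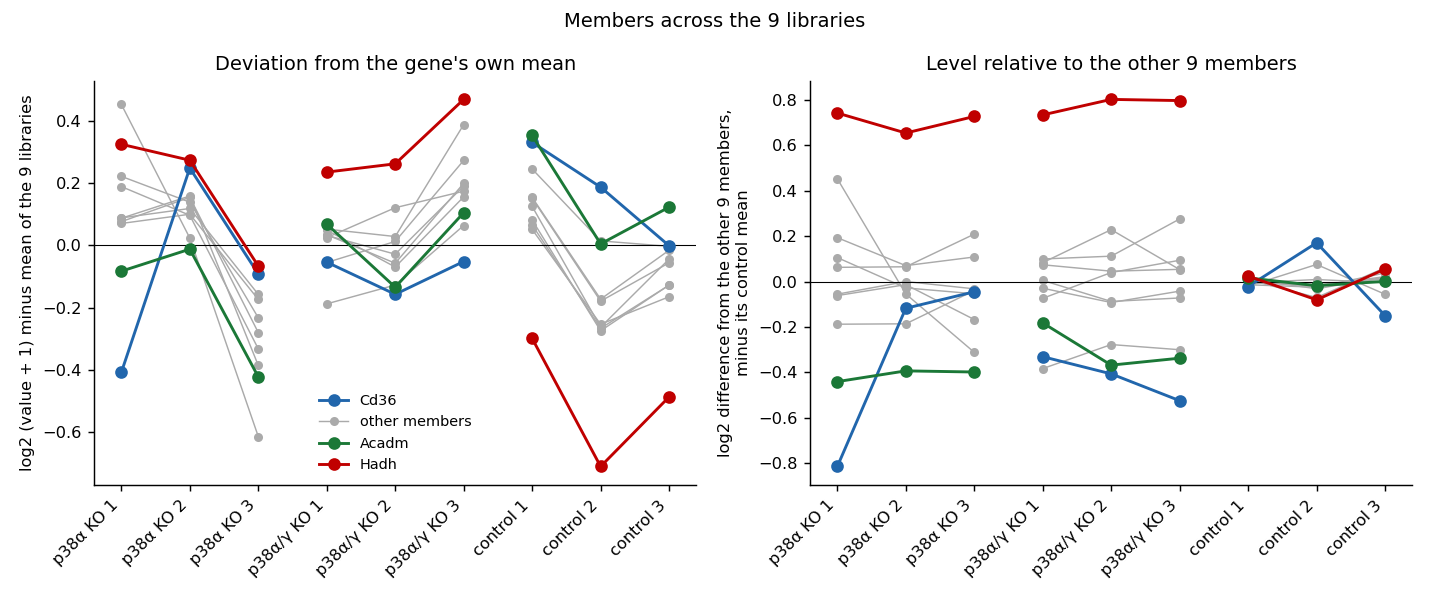
Left, log2(value + 1) of each gene minus its own mean over the 9 libraries; right, the log2 level of each gene minus the mean of the other 9 genes in the same library, set to 0 at the control mean. Lines join the libraries of a group for readability and imply no order; Hadh is red, Acadm green, Cd36 blue and the other 7 genes grey. On the right the mean of Hadh is 0.71 higher in p38α KO muscle and 0.78 higher in p38α/γ KO muscle than in control, and that of Acadm is lower by 0.41 and 0.30. For genes other than Hadh the other 9 include Hadh, whose rise lowers them on the right.

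Because the libraries shift together, each gene was also described relative to the mean log2 level of the other 9 in the same library, a quantity in which a common scaling of the library drops out. For Hadh it was -0.32, -0.40 and -0.33 in p38α KO muscle, -0.32, -0.26 and -0.26 in p38α/γ KO muscle, and -1.04, -1.14 and -1.0 in control. The difference from control was 0.71 in p38α KO muscle and 0.78 in p38α/γ KO muscle, close to the changes of Hadh by itself. For Acadm it was -0.38, -0.34 and -0.34 in p38α KO muscle, -0.13, -0.31 and -0.28 in p38α/γ KO muscle, and 0.07, 0.04 and 0.06 in control, so that all 6 knockout libraries were below the 3 controls. The differences were -0.41 in p38α KO muscle and -0.30 in p38α/γ KO muscle. Acadl was higher by 0.11 in p38α KO muscle and 0.12 in p38α/γ KO muscle, and Acadvl by 0.12 in p38α KO muscle and 0.06 in p38α/γ KO muscle, without overlap. In all, 4 of the 10 did not overlap with control in p38α KO muscle and 8 of the 10 in p38α/γ KO muscle. For every gene but Hadh the mean of the other 9 includes Hadh. The rise of Hadh therefore lowers the relative levels of the others in both knockouts, Acadm among them. These are descriptions with no test. Of the 13127 other tested genes, set against the mean of all 10, 18.5% did not overlap with control in p38α KO muscle and 40.7% in p38α/γ KO muscle. These shares are not an equal background, since each of the 10 was set against 9 genes that tend to shift with it. For ratios, the share of all gene pairs without overlap was not computed, so the next count has no background and is a description only. Of the 45 pairs that the 10 genes form, 22 had ratios without overlap with control in both knockouts, 9 of them with Hadh. Among these, the ratio of Acadm to Hadh was 0.958, 1.04 and 0.993 in p38α KO muscle, 1.13, 0.966 and 0.988 in p38α/γ KO muscle, and 2.0, 2.09 and 1.94 in control. The ratio of Acadl to Acadm was 1.6 ± 0.077 in p38α KO muscle, 1.5 ± 0.159 in p38α/γ KO muscle and 1.16 ± 0.018 in control (SD, n = 3). Hadh made up 6.89% ± 0.237 of the summed value of the 10 genes in p38α KO muscle, 7.16% ± 0.182 in p38α/γ KO muscle and 4.40% ± 0.211 in control.

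On the plain values, 2 of the 10 genes did not overlap with control in p38α KO muscle, Acadm and Hadh, where 38.6% of all tested genes did not. The genes without overlap in p38α/γ KO muscle were Cd36 and Hadh, again 2 of the 10, where 55% of all tested genes did not overlap. Between the p38α KO and the p38α/γ KO, 0 of the 10 were without overlap, against 14.3% of all tested genes. Macrophage and monocyte markers moved with the same groups as Hadh. Their summed level over 16 genes was 579, 422 and 259 in p38α KO muscle, 434, 567 and 339 in p38α/γ KO muscle, and 147, 183 and 136 in control, with 12 of 16 called higher in p38α KO muscle and 15 of 16 in p38α/γ KO muscle. Over all tested genes, 7.32% were called higher in p38α KO muscle and 11.2% in p38α/γ KO muscle. The 31 nuclear subunits of oxidative phosphorylation and citrate synthase had medians of 0.20 and 0.25, beside 0.01 and 0.02 over all tested genes. Of these 31, 1 was called higher in p38α KO muscle and 5 in p38α/γ KO muscle, with none lower. Scaling to equal totals raised these counts to 14 in p38α KO muscle and 23 in p38α/γ KO muscle, the replicate block left 0 and 2, and without replicate 2 of the p38α/γ KO that group had 0. The macrophage count was 2 in p38α KO muscle without control 1 and 3 in p38α/γ KO muscle without replicate 2 of that group. Their part in the Hadh values was not tested.

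Other genes of fatty acid use were read from gene lists, in the same fit, with the shares of all tested genes called higher (7.32% in p38α KO muscle, 11.2% in p38α/γ KO muscle) and lower (10.4% in p38α KO muscle, 14.4% in p38α/γ KO muscle) as background. Of 15 further mitochondrial beta-oxidation enzymes none was called in p38α KO muscle by limma (2 at an unadjusted p below 0.05), and 1, Acaa2, rose in p38α/γ KO muscle. Acaa2 encodes the mitochondrial thiolase that closes the spiral after Hadh. It had values of 392, 358 and 252 in p38α KO muscle, 347, 331 and 393 in p38α/γ KO muscle, and 266, 198 and 224 in control, the p38α/γ KO being above control without overlap. Its log2 change was 0.64 in p38α/γ KO muscle (limma adjusted p = 0.0242), a call lost without any 1 of 4 libraries, replicates 2 and 3 of the p38α/γ KO and of control (adjusted p up to 0.0878). In p38α KO muscle it was 0.53 (adjusted p = 0.057). The median of the list was 0.13 in p38α KO muscle and 0.05 in p38α/γ KO muscle. Scaling to equal totals, added after the sums were seen, gave 4 calls higher in each knockout, and without replicate 3 of the p38α KO, the library lowest of its group for 9 of the 10 genes, 3 were called higher in p38α KO muscle. In the direct comparison of the knockouts, none of 78 tested genes of this list and the 5 described next was called by limma (5 at an unadjusted p below 0.05).

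Among 14 tested genes of fatty acid release, entry and activation, none rose and 3 fell in p38α KO muscle, and 1 rose and 3 fell in p38α/γ KO muscle. Without replicate 3 of the p38α KO, 2 rose in p38α KO muscle, and 1 did under each of 4 other scalings. The count that rose in p38α/γ KO muscle was 4 without replicate 1 of the p38α KO and under scaling to equal totals. Their medians were 0.02 in p38α KO muscle and 0.26 in p38α/γ KO muscle. The falls were mostly of acyl-CoA synthetases, which activate fatty acids, outside the main muscle form Acsl1. Acsl4 had 20.3, 21 and 23.4 in p38α KO muscle, 20.4, 21.1 and 19.2 in p38α/γ KO muscle, and 29.3, 26.9 and 28 in control, so that both knockouts lay below control. Its log2 change was -0.37 in p38α KO muscle (limma adjusted p = 0.0216) and -0.45 in p38α/γ KO muscle (adjusted p = 0.00947). Acsl3 fell by 0.99 in p38α KO muscle on the log2 scale (adjusted p = 0.0159) and Acsl6 fell by 0.87 in p38α/γ KO muscle (adjusted p = 0.0248). Cav1, a caveolin of fat and endothelium, fell by 0.42 in p38α KO muscle (adjusted p = 0.024) and by 0.43 in p38α/γ KO muscle (adjusted p = 0.0190). Got2, a mitochondrial aspartate aminotransferase also known as a fatty acid binding protein of the plasma membrane, was higher by 0.37 in p38α/γ KO muscle (adjusted p = 0.0471, and 0.0709 with the replicate number as a block). In p38α KO muscle, the Acsl4 call was lost without replicate 2 of that group or any 1 control (adjusted p up to 0.0854), that of Cav1 without replicate 2 or without control 2 or 3 (up to 0.1), and that of Acsl3 without replicate 2 (0.0506). In p38α/γ KO muscle, the calls of Cav1, Acsl6 and Got2 were each lost without any 1 of at least 4 libraries, replicates 2 and 3 of the p38α/γ KO and controls 2 and 3 among them (up to 0.0818 for Cav1, 0.0906 for Acsl6 and 0.153 for Got2). With libraries scaled to equal totals the test was missed by Cav1 in both knockouts (0.197 in p38α KO muscle, 0.177 in p38α/γ KO muscle) and by Acsl4 in p38α KO muscle (0.159). Acsl1 itself had log2 changes of -0.19 in p38α KO muscle (adjusted p = 0.436) and -0.24 in p38α/γ KO muscle (adjusted p = 0.290).

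Of 11 genes of the carnitine shuttle and of malonyl-CoA control, none rose, 1 fell in p38α KO muscle and 2 fell in p38α/γ KO muscle, with medians of -0.08 and -0.18. The genes that fell encode subunits of AMP-activated protein kinase, which lowers malonyl-CoA by phosphorylating acetyl-CoA carboxylase. Prkab2, its beta-2 subunit, had values of 126, 213 and 244 in p38α KO muscle, 257, 217 and 227 in p38α/γ KO muscle, and 478, 439 and 461 in control. All knockout libraries lay far below the controls. It was 2.44-fold lower in p38α KO muscle (limma adjusted p = 0.00463) and 1.96-fold lower in p38α/γ KO muscle (adjusted p = 0.0119, and 0.0541 without replicate 2 of that group). Prkaa2, the alpha-2 catalytic subunit, had values of 106, 187 and 219 in p38α KO muscle, 146, 112 and 129 in p38α/γ KO muscle, and 269, 265 and 263 in control. Both knockouts were below control without overlap. The log2 change was -1.05 in p38α/γ KO muscle (adjusted p = 0.0125, and 0.0584 without replicate 2 of that group) and -0.70 in p38α KO muscle, where it did not pass (adjusted p = 0.0561).

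Of 16 peroxisomal genes, 1 rose and 2 fell in p38α KO muscle, and 2 rose and 2 fell in p38α/γ KO muscle, with medians of 0.01 and -0.14. Abcd2, a fatty acyl-CoA transporter of the peroxisomal membrane, had 20, 28.7 and 33.8 in p38α KO muscle, 26, 19 and 18 in p38α/γ KO muscle, and 45.6, 45.5 and 48.6 in control, and was 1.71-fold lower in p38α KO muscle (limma adjusted p = 0.0221) and 2.19-fold lower in p38α/γ KO muscle (adjusted p = 0.00562). Pex11a, a peroxisome proliferation factor, fell by 0.51 in p38α KO muscle (adjusted p = 0.0372) and by 0.44 in p38α/γ KO muscle (adjusted p = 0.0494, and 0.0719 with the replicate number as a block). The peroxisomal thiolase Acaa1a rose by 0.50 in p38α/γ KO muscle (adjusted p = 0.011). Leaving out any 1 control ended the calls of Abcd2 (up to 0.0798) and Pex11a (up to 0.119) in p38α KO muscle and of Pex11a (up to 0.17) in p38α/γ KO muscle. Leaving out replicate 2 or 3 of the p38α/γ KO ended, in that group, those of Pex11a and Acaa1a (0.0507 for Acaa1a). Both calls of Pex11a ended under scaling to equal totals (0.149 in p38α KO muscle, 0.249 in p38α/γ KO muscle). None of the 5 ketone body enzymes was called by limma in either knockout (1 at an unadjusted p below 0.05 in p38α KO muscle, 0 in p38α/γ KO muscle).

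Of 17 transcriptional regulators and genes known to respond to fatty acids, 3 rose and 4 fell in p38α KO muscle, and 4 rose and 2 fell in p38α/γ KO muscle. Their medians were 0.14 in p38α KO muscle and 0.07 in p38α/γ KO muscle. Ppargc1a, which encodes the coactivator PGC-1α, had 41.1, 52.2 and 41.5 in p38α KO muscle, 41.1, 37.7 and 41.3 in p38α/γ KO muscle, and 28.7, 30.4 and 23.7 in control, every knockout library being above every control. It was 1.6-fold higher in p38α KO muscle (limma adjusted p = 0.00731) and 1.44-fold higher in p38α/γ KO muscle (adjusted p = 0.0163). Plin2, a lipid droplet coat protein, had 49.8, 51.9 and 50.3 in p38α KO muscle, 67.2, 67.0 and 62.3 in p38α/γ KO muscle, and 42.1, 37.7 and 43.3 in control. The groups did not overlap at all, with the p38α/γ KO highest. Plin2 was 1.58-fold higher in p38α/γ KO muscle (adjusted p = 0.00197) and 1.23-fold higher in p38α KO muscle (adjusted p = 0.0335). Angptl4, an inhibitor of lipoprotein lipase, was 1.48-fold higher in p38α KO muscle (adjusted p = 0.0269) and 1.56-fold higher in p38α/γ KO muscle (adjusted p = 0.0151). Ucp3, the muscle uncoupling protein, was 2.04-fold lower in p38α KO muscle (adjusted p = 0.0179) and had a log2 change of -0.55 in p38α/γ KO muscle (adjusted p = 0.105). The retinoid X receptors, partners of the PPARs, were lower, with log2 changes of Rxra of -0.62 in p38α KO muscle (adjusted p = 0.0324) and -0.58 in p38α/γ KO muscle (adjusted p = 0.0325). That of Rxrg was -0.38 in p38α KO muscle (adjusted p = 0.0464) and -0.56 in p38α/γ KO muscle (adjusted p = 0.0113). Ncor1, a corepressor, completed the calls in p38α KO muscle at -0.27 (adjusted p = 0.0460), and Ppargc1b, a relative of Ppargc1a, those in p38α/γ KO muscle at 0.64 (adjusted p = 0.0445). The receptors Ppara and Ppard themselves were not called.

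Several of these regulator calls were lost when 1 library was left out, as were many calls over all genes. Calls over all genes fell from 2332 in p38α KO muscle to 840, 981 and 801 without control 1, 2 and 3. In p38α/γ KO muscle they fell from 3368 to 844 without replicate 2 of that group and 1010 without its replicate 3. Among the regulators, the count that rose in p38α KO muscle was 6 without replicate 3 of that group and under scaling to equal totals. It was 1 without any 1 control. The count that fell was 0 in p38α KO muscle without any 1 control, and in p38α/γ KO muscle it was 4 without replicate 1 of the p38α KO and 0 without replicate 2 of the p38α/γ KO. In p38α KO muscle, leaving out any 1 control ended those of Ucp3 (adjusted p up to 0.0652), Angptl4 (up to 0.103) and Rxra (up to 0.0968), and Rxra also fell out without replicate 2 of that group or replicate 3 of the p38α/γ KO. Leaving out control 3 or replicate 3 of the p38α/γ KO ended those of Ppargc1a (up to 0.0638) and Angptl4 (up to 0.0609) in that group, and for Angptl4 so did leaving out its replicate 2. Rxrg fell out there without replicate 2 (0.052), and Rxra without replicate 2 or 3 or any 1 control (up to 0.111) and with the replicate number as a block (0.0569). The call of Ppargc1b was lost without any 1 of 7 libraries (up to 0.156) and under the block (0.0736). In p38α KO muscle, the call of Plin2 was lost without any 1 of 5 libraries (up to 0.118), that of Rxrg without any 1 of 6 (up to 0.137) and that of Ncor1 without any 1 of 8 (up to 0.131), every control among them. Scaling to equal totals ended the calls of Rxra in both knockouts (0.0606 in p38α KO muscle, 0.0721 in p38α/γ KO muscle) and those of Rxrg and Ncor1 in p38α KO muscle (up to 0.558). The calls of Ppargc1a in p38α KO muscle and of Plin2 in p38α/γ KO muscle, like those of Hadh, held in limma without any 1 of the 9 libraries.

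**Figure D4:**
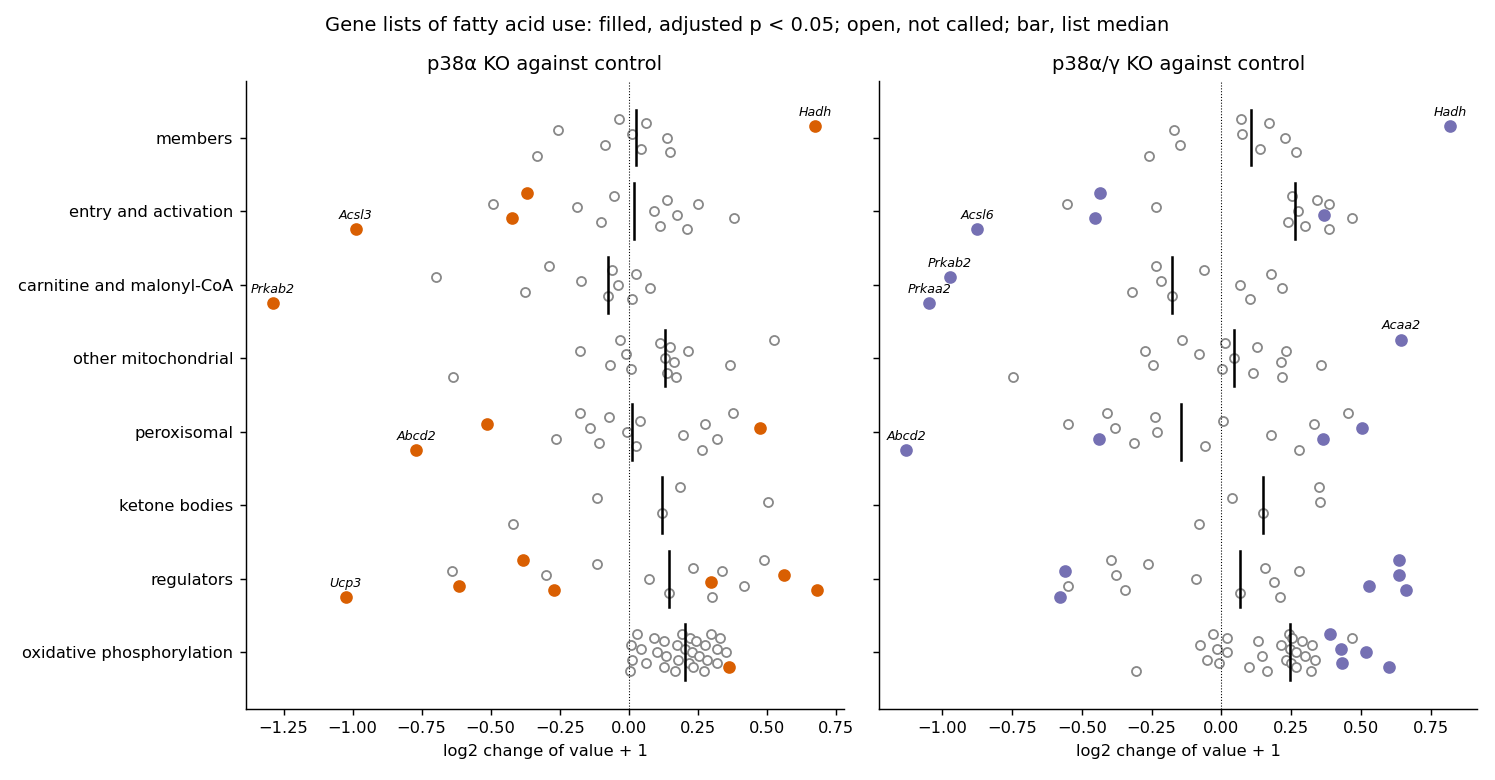
Log2 change of value + 1 (horizontal axis) of every tested gene of the 10 described here (members) and of 7 other lists, in p38α KO muscle against control (left) and the p38α/γ KO against control (right). Filled points passed an adjusted p below 0.05, open points did not, and bars mark list medians; vertical scatter within a list only separates points. Hadh lies apart at the right of its list in both panels, and the oxidative phosphorylation list has its median at 0.20 in p38α KO muscle and 0.25 in p38α/γ KO muscle.

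The 5 other genes whose levels followed the mean of the 10 most closely over the 9 libraries were Slc25a20, Uqcrfs1, Tmem70, Decr1 and Timmdc1, out of 13127 compared. The root mean square distance on the log2 scale was 0.0507 for Slc25a20 and 0.0781 for Timmdc1. Slc25a20 encodes the carnitine-acylcarnitine carrier that lies between Cpt1b and Cpt2 in the pathway, Decr1 an auxiliary enzyme for unsaturated fatty acids, and Uqcrfs1 a subunit of respiratory complex III. Slc25a20 had values of 142, 151 and 125 in p38α KO muscle, 139, 141 and 162 in p38α/γ KO muscle, and 158, 122 and 133 in control, and its groups overlapped. Among the 10 genes themselves Hadha was closest to their mean (0.0311), followed by Hadhb (0.0492) and Acadvl (0.0546). Hadh (0.319), Cd36 (0.255) and Fabp3 (0.182) were farthest from it. Likeness here is a description over 9 libraries that share scaling and group structure.

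Several of the 10 genes share sequence space with neighbours in the GENCODE M21 annotation. Fabp3 overlaps Zcchc17 by 81 bases and Gm10570 by 80, both on the opposite strand, and Hadha overlaps Garem2 by 75 bases on the opposite strand. The microRNA genes Mir324 and Mir1960 lie within Acadvl and Hadhb, and Gm15793 and Gm27934 lie within Acadl. How reads in shared stretches were assigned is not given in the sources used here, so small parts of these values are uncertain.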

How the data were processed

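Gastrocnemius RNA of 9 libraries was measured by RNA-seq with 51-base single reads from 100 ng of RNA with RIN above 8, per the labels' protocols. Per the submitters' processing notes, the tools were RSEM 1.3.1, CASAVA 1.8, limma and cutadapt, and the genome GRCm38; no order is given. The deposited table holds 1 normalised signal value per gene and library; how the authors scaled it is not given in the sources used here. Within 0.001, all deposited values were odd multiples of their library's smallest, the pattern of a whole number plus 0.5 over a scaled total, from which depths and reads were inferred. They cover counting error only and were not tested as counts.

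Values of at least 1 in at least 3 libraries admitted 13137 genes. Log2(value + 1) was fitted with limma 3.58.1 (R 4.3.3), 3 groups in 1 fit, empirical Bayes with trend and Benjamini-Hochberg adjustment over all tested genes of a comparison. Adjusted p-values are from limma unless an exact permutation test is named, and fold changes are of value + 1, which understates low genes. Symbols came with the table, and 13172 of 13179 identifiers were found in GENCODE M21. Promoters are from RefSeq. Figures were drawn with matplotlib 3.10.9. The fit was run on simulated counts of independent libraries with the same spread setting for all genes. That check does not cover library-wide shifts or a library that stands apart, as seen here.

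The 10 genes and all lists were chosen with earlier results of these data known. Named genes were the 10, Mapk14 and Mapk12, and at most 4 called genes per list and comparison by lowest p. Overlapping genes and the 5 most alike were named too. Other called regulators, Acsl1, Acsl5, Fabp4, Ppara, Ppard and the neighbours of Hadh were named after their values were seen. Slc27a6 was not analysed here. The result of 1 named gene is not reported here. Deviations of same-numbered libraries of the p38α/γ KO and control had weak positive correlations across genes (0.11, 0.12 and 0.15). The other comparisons each had a negative correlation between same numbers. Between the knockouts, some differently numbered libraries correlated more (0.344 for p38α KO 1 with p38α/γ KO 2). A pairing is therefore not established by the values, and the labels state none. Alternatives changed the filter, pseudocount, scaling, spread estimate, threshold, libraries and replicate block; scaling to equal totals was added after seeing the sums.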

Additional observations from a re-analysis of the deposited data

How the results depend on the processing

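The call of Hadh held under all 20 alternatives in each comparison with control, except that at an adjusted p below 0.01 the count of called genes among the 10 in p38α KO muscle was 0 in place of 1. The p38α/γ KO had a count of 2 in place of 1 under quantile normalisation, under scaling to equal totals (Acadl in both) and with only the 6 libraries compared (Cd36). With the replicate number as a block the counts stayed at 1, 1 and 0, the log2 change of Hadh kept its value with adjusted p = 0.029 in p38α KO muscle and 0.0173 in p38α/γ KO muscle, and Got2, Pex11a, Rxra and Ppargc1b lost their calls in p38α/γ KO muscle. In p38α KO muscle, Acsl4, Cav1, Abcd2, Pex11a, Angptl4, Plin2, Rxra, Rxrg and Ncor1 did so too. There, same-numbered libraries of knockout and control did not all correlate positively.

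Of 1200 log2 changes of named genes under alternatives, 32 changed sign, none of them for a called change, and the cause was not tested. Quantile normalisation turned Cpt1b (0.034) and Hadhb (0.13) in p38α KO muscle, and Acadvl (0.037) and Hadha (0.020) between the p38α KO and the p38α/γ KO. Scaling to equal totals moved the median of all genes to 0.19 in p38α KO muscle and 0.20 in p38α/γ KO muscle. In p38α KO muscle it turned Cpt1b (0.12) and Hadhb (0.17), and in p38α/γ KO muscle Cpt1b (0.042) and Acadm (0.064). These stayed below the median of their comparison. Between the knockouts, where the median of all genes was -0.0122, the scaling turned Cd36 (-0.00306). Leaving out each library in turn gave -0.19 to 0.35 for Fabp3, -0.057 to 0.20 for Cpt2, -0.074 to 0.14 for Hadha and -0.14 to 0.13 for Hadhb in p38α KO muscle. For the p38α/γ KO it gave -0.0027 to 0.16 for Hadha and -0.010 to 0.15 for Hadhb. Between p38α KO and p38α/γ KO muscle it gave -0.16 to 0.17 for Cd36, -0.45 to 0.082 for Fabp3, -0.19 to 0.066 for Cpt2, -0.11 to 0.12 for Acadvl, -0.15 to 0.070 for Hadha and -0.21 to 0.064 for Hadhb.

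Over all genes the p38α KO had 2332 calls, from 801 without control 3 to 3241 without p38α KO 3, and 1379 with only its 6 libraries. The p38α/γ KO had 3368, from 844 without p38α/γ KO 2 to 5346 without p38α KO 1, and 5478 with only its 6 libraries. The direct comparison had 58, from 13 to 1862 (without p38α KO 1), 32 with the replicate block and 22 with only its 6 libraries. Scaling to equal totals changed the split of higher to lower calls to 2513 and 626 in p38α KO muscle (962 and 1370 otherwise) and to 3349 and 836 in p38α/γ KO muscle (1476 and 1892 otherwise). The planned tests on counts were not run, because the table holds normalised values and no counts.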
